A study of Mus musculus with 16 samples.

Results

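The Gimap genes (GTPases of the immunity-associated protein family) were followed across 16 arrays of mouse CD4 T cells. Members were all probes whose annotated symbol starts with Gimap. There were 11 such probes of 25697 on the array, and 10 of them were above background on at least 2 arrays, among 14509 probes that met this limit. They stand for 8 genes (Gimap1, Gimap3, Gimap4, Gimap5, Gimap6, Gimap7, Gimap8 and Gimap9), each with a retained probe, of 9801 genes in all. The series asks how Erk2, a mitogen-activated protein kinase downstream of the T cell receptor, regulates Th1 and induced regulatory T (iTreg) differentiation. The cells came from C57/BL6 mice, either wild type (WT) or Erk2 deficient, and 1 array was run for each genotype in each of 8 conditions. These were day 0, Th0 and iTreg culture for 3 hr, Th0, Th1 and iTreg culture for 1 day, and day 1 Th0 cells that had received TGF (transforming growth factor) for 1 hr or for 3 hr. Th0 is neutral culture. The age of the mice, the way Erk2 was removed and the cytokines of the Th1 and iTreg cultures are not stated in the labels, so the iTreg cultures cannot be matched to the TGF cultures by dose.

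GIMAP proteins are GTP-binding proteins found mainly in lymphocytes, several of them anchored to membranes of the endoplasmic reticulum, the Golgi apparatus, mitochondria or lysosomes. They are known above all for the survival of resting T cells: rats and mice that lack Gimap5 lose peripheral T cells, and mouse lymphocytes without Gimap1 also fail to persist. Proteins of the family have been linked to the Bcl2 family of cell death regulators and, through Gimap6, to the Gabarap proteins of autophagy.

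In the RefSeq annotation of GRCm38.p6 the 8 genes lie side by side on chromosome 6, in the order Gimap8, Gimap9, Gimap4, Gimap6, Gimap7, Gimap1, Gimap5 and Gimap3, with Zfp775 before them and Tmem176b after them. All 8 genes matched the RefSeq table of promoter windows, which run from 250 bases before to 50 bases after a gene's start, and Gimap8 has a pair of overlapping windows. The windows of the genes with the clearest differences are shown: Gimap7, lowest in day 1 iTreg culture, at chr6:48718371-48718670 on the plus strand, Gimap6, with the largest fall by day 1 Th0 culture, at chr6:48708195-48708494 on the minus strand, and Gimap3, with the largest genotype difference in a single pair, at chr6:48770802-48771101 on the minus strand. Capitals mark exact matches to the 7 motifs searched on both strands, and no matches overlap one another in these windows.
Gimap7: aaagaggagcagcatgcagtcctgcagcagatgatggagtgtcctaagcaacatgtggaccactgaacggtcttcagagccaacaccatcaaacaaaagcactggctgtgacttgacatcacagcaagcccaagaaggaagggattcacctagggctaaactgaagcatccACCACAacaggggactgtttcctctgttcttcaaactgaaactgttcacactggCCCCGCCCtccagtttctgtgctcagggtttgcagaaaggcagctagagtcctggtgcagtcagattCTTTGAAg
Gimap6: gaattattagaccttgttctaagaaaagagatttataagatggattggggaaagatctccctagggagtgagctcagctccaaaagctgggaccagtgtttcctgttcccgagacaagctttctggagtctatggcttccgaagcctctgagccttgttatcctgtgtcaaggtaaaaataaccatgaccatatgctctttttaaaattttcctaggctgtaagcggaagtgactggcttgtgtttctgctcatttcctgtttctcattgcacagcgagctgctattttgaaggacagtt
Gimap3: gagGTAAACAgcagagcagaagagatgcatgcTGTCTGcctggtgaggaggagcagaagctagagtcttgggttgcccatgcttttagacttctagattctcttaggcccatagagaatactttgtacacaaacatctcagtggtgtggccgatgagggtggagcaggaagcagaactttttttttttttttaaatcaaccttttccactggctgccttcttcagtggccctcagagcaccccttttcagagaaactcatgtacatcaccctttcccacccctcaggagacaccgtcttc
The Gimap7 window held the KLF letters CCNCNCCC, the RUNX letters TGTGGT and the TCF/LEF letters CTTTGAA. The Gimap3 window held the FOXO letters TGTTTAC and the SMAD letters CAGACA, and the Gimap6 window held none of the 7. Across all 9 Gimap windows, the KLF letters were found for 4 of the 8 genes and in 49.5% of 32851 windows of the same length. The ETS letters AGGAAGT were found for 3 genes (9.35% of windows), the RUNX letters for 3 (16.8%), the SMAD letters for 2 (21%), and the FOXO and TCF/LEF letters for 1 each (3.65% and 5.14%). The AP1 letters TGANTCA, found in 7.81% of windows, were in no Gimap window. No motif was common to all 8 genes.

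Levels are normalized log2 intensities, on which a difference of 1 is a 2-fold change, and they are compared between arrays for 1 probe at a time and not between probes. The arrays had median intensities of 62.6 to 71.1 and 12163 to 12708 probes above background. Each combination of genotype and culture was measured once and nothing says which cultures came from which animals, so the p-values speak only for the spread among these arrays, which may be technical. Day 0, the 3 hr cultures and day 1 Th0 culture shared 1 chip, and the other day 1 cultures another. For day 1 iTreg or TGF culture against Th0 culture, chip and condition therefore cannot be told apart, while iTreg against Th1 and against 1 hr of TGF are comparisons within a chip. WT and Erk2-deficient arrays alternate on both chips, and a position effect cannot be told apart from genotype. The day 0 pair ran opposite to the other 7 pairs for Gdpd3 (−3.48 against 0.93 to 2.74, Erk2-deficient minus WT, log2) and for Hba-a1 (3.2 against −3.45 to −0.51). Genotype results are therefore also given without the day 0 arrays, which are called by their labels only. The Erk2-deficient day 1 iTreg array stood apart from the other day 1 arrays on the first principal component (17.1 against 30.0 to 35.1). For Gimap genes, differences of iTreg from Th0 culture and genotype results are also given without it. For other genes such values are not given.

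Most of the family stayed high during the first 3 hr of culture and was much lower by day 1. At 3 hr, over both cultures, 2 genes had risen (Gimap4 and Gimap5) and 2 had fallen (Gimap6 and Gimap7), with a median difference of 0.06 for the 8 genes and 0.006 for all genes. By day 1 in Th0 culture 7 of 8 genes were lower than at 3 hr in Th0 culture and 1, Gimap7, was slightly higher. The median difference was −1.05 for the family against 0.005 for all genes. Such calls were frequent everywhere. Of all probes 49.3% passed the test at 3 hr against day 0 (24.5% higher and 24.7% lower), and 53.8% for day 1 against 3 hr Th0 culture (26.4% higher and 27.4% lower). A call is an adjusted p below 0.05 in limma over all 14509 probes.

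Gimap6, whose protein binds a Gabarap protein, had the largest fall. Its level was 12.08 and 11.99 on the day 0 arrays labelled WT and Erk2-deficient, 11.94 and 11.77 (WT first, here and below) after 3 hr in Th0 culture, 11.63 and 11.66 after 3 hr in iTreg culture, and 9.92 and 9.89 in day 1 Th0 culture. The levels at day 1 did not overlap those before it, and most of the gap opened between 3 hr and day 1. The fall from 3 hr to day 1 in Th0 culture was 3.85-fold (log2 difference −1.94, SE 0.131, adjusted p 5.25e-09). Its small decline by 3 hr (−0.29, SE 0.113, adjusted p 0.0455) was called in the fit as designed but lost the call in 18 of 27 alternatives.

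Gimap8, the member that carries several GTPase domains, and Gimap3, which in mice has been linked to the inheritance of mitochondrial DNA, followed a similar course. Gimap8 was 11.55 and 11.72 at day 0, 11.88 and 11.82 after 3 hr in Th0 culture and 9.91 and 9.98 in day 1 Th0 culture, a 3.75-fold fall after 3 hr (−1.91, SE 0.122, adjusted p 3.05e-09). Gimap3 was 12.53 and 12.48 at day 0, 12.67 and 12.55 after 3 hr in Th0 culture and 10.66 and 10.81 in day 1 Th0 culture, a 3.66-fold fall (−1.87, SE 0.193, adjusted p 6.23e-07). Both genes were at or above their day 0 level at 3 hr in Th0 culture, and neither had passed the test at 3 hr over both cultures (0.16 and 0.07).

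Gimap9 and Gimap1 fell less. Gimap9 was 10.98 on both day 0 arrays, 11.12 and 11.16 after 3 hr in Th0 culture and 9.84 and 9.94 in day 1 Th0 culture, a 2.37-fold fall (−1.25, SE 0.0913, adjusted p 1.44e-08). Gimap1, which mature T and B cells of the mouse need in order to persist, was 12.44 and 12.42 at day 0, 12.32 and 12.38 after 3 hr in Th0 culture and 11.65 and 11.68 in day 1 Th0 culture, a 1.60-fold fall (−0.68, SE 0.0817, adjusted p 3.19e-06). The dimmer Gimap1 probe gave nearly the same difference (−0.65, adjusted p 0.000174).

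Gimap5, the survival gene of the family, was the gene that rose most at 3 hr, but its probes did not give the same course. The brighter probe was 8.55 and 8.53 at day 0, 9.73 and 9.16 after 3 hr in Th0 culture, 9.56 and 9.31 after 3 hr in iTreg culture, and 8.57 and 8.61 in day 1 Th0 culture. By this probe Gimap5 was 1.86-fold higher at 3 hr (0.90, SE 0.133, adjusted p 3.48e-05) and back at its starting level at day 1 (0.05 against day 0, adjusted p 0.793). The other probe was 9.15 and 9.12 at day 0, 9.31 and 8.99 after 3 hr in Th0 culture, 9.67 and 9.06 after 3 hr in iTreg culture, and 7.81 and 7.86 in day 1 Th0 culture. It did not pass the test at 3 hr (0.13, adjusted p 0.416) and was 2.46-fold lower at day 1 than at day 0 (−1.30, SE 0.137, adjusted p 5.4e-07). Both probes fell from 3 hr to day 1 in Th0 culture (−0.85 and −1.32). The sequences of the probes were not used here, so which transcripts each one reads, and whether either also reads the near relative Gimap3, was not tested.

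Gimap4, which promotes T cell death in mice, was close to the background. Its retained probe was 6.38 and 6.37 at day 0, 6.65 and 6.67 after 3 hr in Th0 culture, and 6.12 and 6.21 in day 1 Th0 culture, where it was not well above background. It rose at 3 hr (0.29, SE 0.083, adjusted p 0.0079) and was then at least 1.28-fold lower by day 1 in Th0 culture (adjusted p 0.00039) and at least 1.29-fold lower in iTreg culture. These bounds set the 3 hr mean against the lowest signal that counts as above background. The rise at 3 hr lost its call without the Erk2-deficient day 0 array (adjusted p 0.0618). The other Gimap4 probe was above background on none of the 16 arrays, at 5.71 to 6.12.

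Gimap7, whose human counterpart acts as a catalyst of GTP hydrolysis by another GIMAP protein, did not follow the rest of the family over time. It was 9.32 and 9.35 at day 0, 8.70 and 9.08 after 3 hr in Th0 culture, 8.49 and 8.87 after 3 hr in iTreg culture, and 9.05 and 9.34 in day 1 Th0 culture. Its mean was thus lowest at 3 hr among these times, 1.46-fold below day 0 (−0.55, SE 0.106, adjusted p 0.000445), when the 4 arrays did not overlap the day 0 arrays. Its day 1 Th0 level lay near that of day 0 (−0.14, adjusted p 0.368). The rise from 3 hr to day 1 in Th0 culture (0.31, SE 0.123, adjusted p 0.0457) lost its call in 13 of 27 alternatives.

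**Figure D1:**
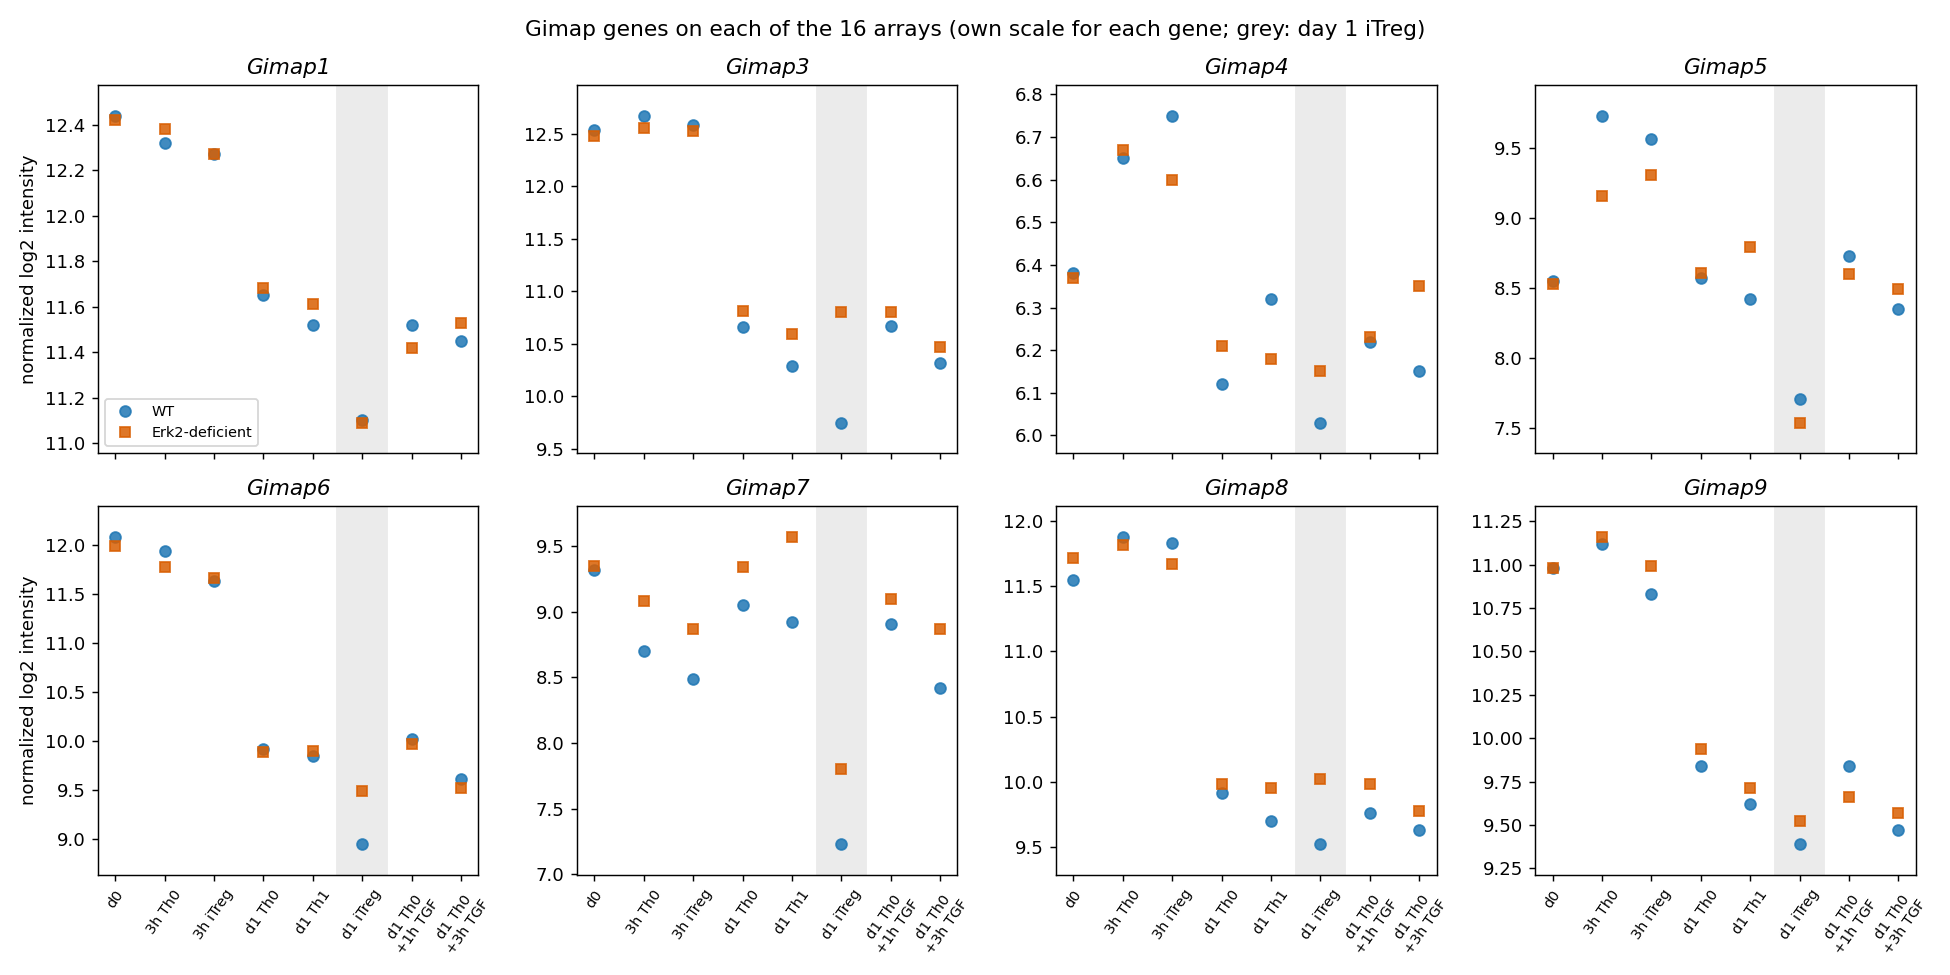
Normalized log2 intensity of the brighter retained probe of each of the 8 Gimap genes (vertical axis, own scale for each gene) in the 8 conditions (horizontal axis). Circles are WT and squares Erk2-deficient arrays, 1 array each, and grey marks day 1 iTreg culture. Gimap1, Gimap3, Gimap6, Gimap8 and Gimap9 stand high in the 6 arrays before day 1 and lower in all day 1 arrays, whereas Gimap7 drops in day 1 iTreg culture.

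Against day 0 itself, 5 of 8 genes were lower in day 1 Th0 culture (Gimap1, Gimap3, Gimap6, Gimap8 and Gimap9) and 0 were higher, with a median of −0.93. Of all probes 60.0% passed the test in this comparison, 29.5% as lower. In iTreg culture all 8 genes fell from 3 hr to day 1, by a median of −1.63, where 51.7% of all probes were called and 26.5% were lower. There Gimap6 fell 5.37-fold (−2.43, adjusted p 4.49e-10), Gimap3 4.84-fold (−2.27, adjusted p 8.52e-08) and Gimap7 2.25-fold (−1.17, adjusted p 8.61e-07). This last comparison crosses the chips.

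The T cell markers and the markers of other cells also moved with time. Summed over 6 T cell markers (Cd3e, Cd3d, Cd3g, Cd4, Cd5 and Thy1), all above background on all 16 arrays, normalized intensity was 38513 to 40807 at day 0, 28686 to 38918 at 3 hr, 18439 to 22206 at day 1 outside iTreg culture, and 17291 and 28890 in the 2 iTreg arrays, the higher value in the Erk2-deficient one. Summed myeloid markers (7 genes) went from 2898 to 3934 at day 0 to 600 to 790 at day 1 outside iTreg culture. At 3 hr they were 3166 and 2606 on the WT arrays (Th0 and iTreg culture) and 1588 and 1691 on the Erk2-deficient arrays. B cell markers (5 genes) were 464 to 469 at day 0 and 361 to 415 on the later arrays. All 5 were above background on the day 0 array labelled WT and fewer on every other array. CD8 and NK cell markers (6 genes) were 2788 to 2860 at day 0 and 1404 to 2008 at day 1 outside iTreg culture. The 2 red cell markers summed to 604 and 5024 at day 0 and to 134 to 457 at day 1 outside iTreg culture. At 3 hr they summed to 5659 and 5557 on the WT arrays (Th0 and iTreg culture) and to 569 and 583 on the Erk2-deficient arrays. By the measure of background used here, 0 of the 5 B cell markers were above it on some 3 hr and day 1 arrays and 0 of the 2 red cell markers on a day 1 array. Their part in the fall of the Gimap genes was not tested, and fewer cells of a type and less RNA per cell cannot be told apart in bulk samples.

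In day 1 iTreg culture several members were lower than in the other day 1 cultures, Gimap7 most of all. Against day 1 Th0 culture 5 of 8 genes were lower (Gimap1, Gimap5, Gimap6, Gimap7 and Gimap9), 0 were higher, and all 8 differences were negative, with a median of −0.52. Only 6.59% of all probes were called here, 2.99% as lower, and the median of all genes was −0.017. Against Th1 culture on the same chip 4 of 8 genes were lower (Gimap1, Gimap5, Gimap6 and Gimap7), with a median of −0.34, where 8.53% of all probes were called and 3.77% were lower. Both comparisons share the iTreg arrays, so they are not separate evidence.

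Gimap7 was 7.23 and 7.80 in day 1 iTreg culture, 9.05 and 9.34 in Th0 culture, and 8.92 and 9.57 in Th1 culture. Both iTreg arrays lay below all 14 others, the nearest of which was the WT array with 3 hr of TGF at 8.42. Gimap7 was 3.21-fold lower than in Th0 culture (−1.68, SE 0.123, adjusted p 5.59e-07) and 3.32-fold lower than in Th1 culture (−1.73, SE 0.123, adjusted p 2.65e-07). Among all 14509 probes it had the 5th largest fall in the first comparison and the 8th largest in the second. The fall against Th0 culture was present in each genotype (−1.83 in WT and −1.54 in Erk2-deficient cells), and without the Erk2-deficient iTreg array it was −1.80 (adjusted p 9.47e-07).

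Gimap5 was 7.71 and 7.54 in iTreg culture by its brighter probe, against 8.57 and 8.61 in Th0 culture and 8.42 and 8.79 in Th1 culture. The 2 iTreg arrays were the lowest of all 16. The difference was 1.96-fold against Th0 culture (−0.97, SE 0.154, adjusted p 0.000912) and 1.98-fold against Th1 culture (−0.98, SE 0.154, adjusted p 0.000693). The other Gimap5 probe gave smaller differences, −0.42 (adjusted p 0.0854) and −0.49 (adjusted p 0.0357). Without the Erk2-deficient iTreg array the brighter probe was at −0.91 against Th0 culture (adjusted p 0.00808). Gimap1 was 11.10 and 11.09 in iTreg culture, again the lowest of all arrays. It was 1.48-fold lower than in Th0 culture (−0.57, SE 0.0817, adjusted p 0.000357) and 1.38-fold lower than in Th1 culture (−0.47, SE 0.0817, adjusted p 0.00172), and −0.55 against Th0 culture without the Erk2-deficient iTreg array (adjusted p 0.00386).

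Gimap6 and Gimap3 differed between the 2 iTreg arrays themselves. Gimap6 was 8.95 in WT and 9.49 in Erk2-deficient iTreg culture, and both lay below the other 8 day 1 arrays (9.52 to 10.02). It was 1.61-fold lower than in Th0 culture (−0.69, SE 0.131, adjusted p 0.00406) and 1.57-fold lower than in Th1 culture (−0.65, SE 0.131, adjusted p 0.0045). Without the Erk2-deficient iTreg array the first difference was −0.98 and without the WT iTreg array −0.39. The call was lost without the WT Th0 array (adjusted p 0.064) and, against Th1 culture, without the Erk2-deficient Th1 array (adjusted p 0.0609). Gimap3 was 9.75 in WT iTreg culture, the lowest of all arrays, and 10.80 in Erk2-deficient iTreg culture, inside the range of the other day 1 arrays (10.29 to 10.81). Its difference from Th0 culture did not pass the test over both genotypes (−0.46, SE 0.193, adjusted p 0.197). It was −0.95 without the Erk2-deficient iTreg array and 0.02 without the WT iTreg array, so a single array decided this result. Against Th1 culture the Gimap3 difference was −0.16 (adjusted p 0.703). It was −0.65 without the Erk2-deficient iTreg array and 0.32 without the WT iTreg array.

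Gimap9 was 9.39 and 9.52 in iTreg culture against 9.84 and 9.94 in Th0 culture, 1.35-fold lower (−0.44, SE 0.0913, adjusted p 0.0081), and the call was lost in 3 of 29 alternatives. It was −0.48 without the Erk2-deficient iTreg array (adjusted p 0.0229). Against Th1 culture its difference was −0.21 (adjusted p 0.186). Gimap8 and Gimap4 did not pass the test in either comparison (−0.17 and −0.05 for Gimap8, −0.07 and −0.16 for Gimap4). Without the Erk2-deficient iTreg array their differences from Th0 culture were −0.38 and −0.13. None of the 6 T cell markers passed the test for iTreg against Th0 or Th1 culture, where 6.59% and 8.53% of all probes were called. With 6 markers this does not show equal levels. Of 4 retained CD8 and NK cell markers 2 were higher and 1 lower in iTreg than in Th0 culture, beside 3.60% and 2.99% of all probes. The part of these markers in the result was not tested.

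**Figure D2:**
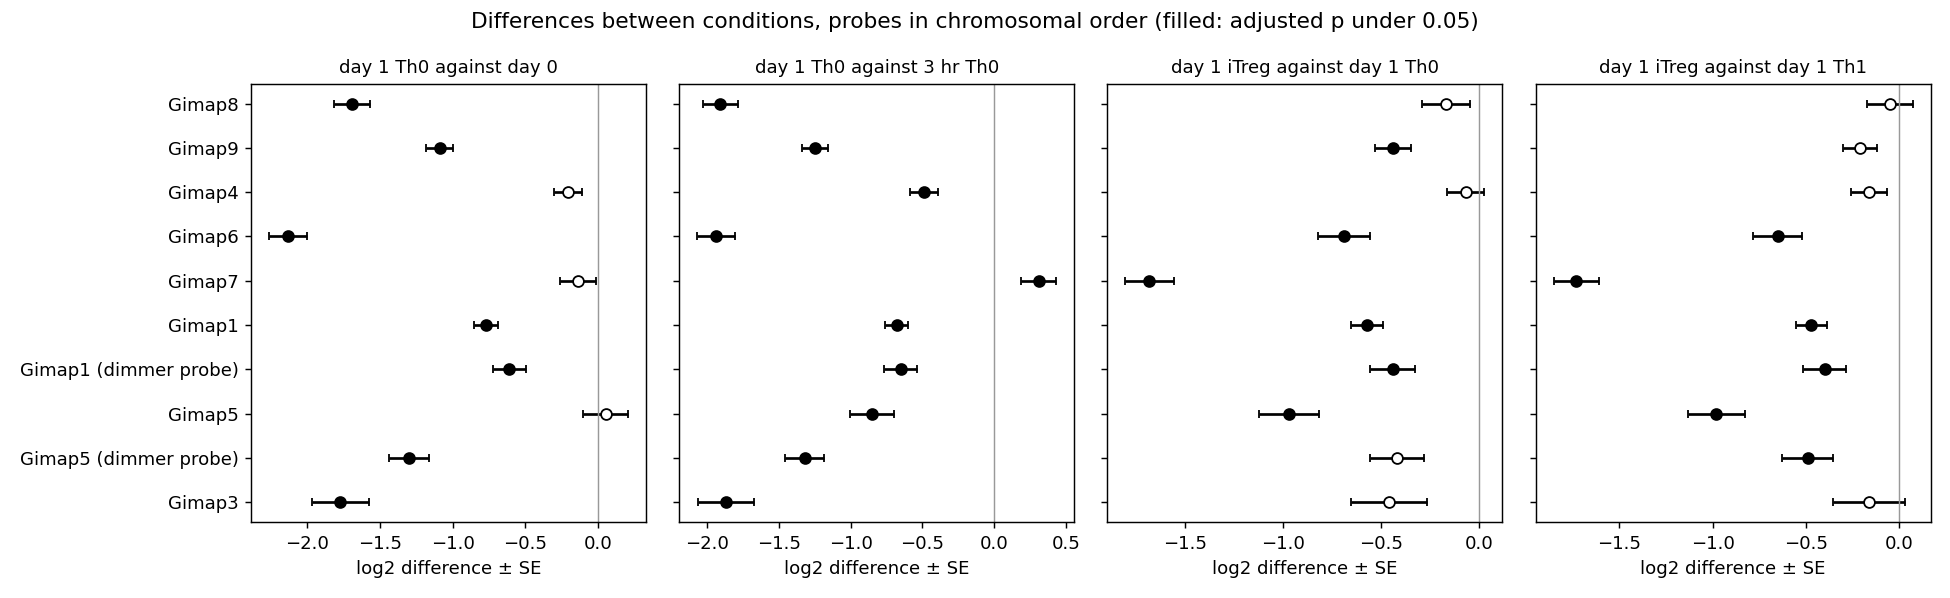
Differences between conditions on the log2 scale (horizontal axis) for the 10 retained Gimap probes (vertical axis, in chromosomal order), with bars of 1 SE from the fit of 16 arrays. Filled points passed the adjusted p limit of 0.05. Both Gimap1 probes lie left of 0 in the 4 panels, the Gimap5 probes part in the first panel, and Gimap7 lies farthest left in both iTreg panels, at −1.68 and −1.73.

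Few Gimap genes were called after short exposure to TGF or in Th1 culture. For Th1 against Th0 culture 0 of 8 genes were called (0.110% of all probes, 16 in all), and 1 of 10 Gimap probes and 774 of all 14509 probes had an unadjusted p under 0.05. For 1 hr of TGF against Th0 culture 0 genes were called as well (0.227% of all probes, 33 in all), with 1 of 10 Gimap probes and 618 of all probes at an unadjusted p under 0.05. At 3 hr of TGF 7 of 8 genes had a negative difference from Th0 culture, with a median of −0.29, and 1 was called, where 1.16% of all probes were called and 0.303% were lower. At an unadjusted p under 0.05 there were 4 of 10 Gimap probes and 1467 of all probes. That gene was Gimap7, at 8.42 and 8.87 against 9.05 and 9.34 (−0.55, SE 0.123, adjusted p 0.0411), and its call was lost in 14 of 29 alternatives. Within the chip, 3 hr against 1 hr of TGF gave 0 calls (0.186% of all probes) and a median of −0.24, and 3 of 10 Gimap probes and 1236 of all probes had an unadjusted p under 0.05. Day 1 iTreg culture against 1 hr of TGF, also within the chip, gave 4 lower genes (3.85% of all probes, 1.74% as lower). They were Gimap7 (−1.49), Gimap5 (−1.04), Gimap6 (−0.77) and Gimap1 (−0.37), the genes that were lower than in Th1 culture too. The dimmer Gimap1 probe was not called here (−0.32, limma adjusted p 0.165), with −0.03 in WT and −0.61 in Erk2-deficient cells. The Gimap1 call was lost in 4 of 28 alternatives, among them without the Erk2-deficient iTreg array (adjusted p 0.0907) and without the WT 1 hr TGF array (adjusted p 0.224). The Gimap6 call was lost without the WT 1 hr TGF array (adjusted p 0.054). The comparisons with 1 hr of TGF were added once the values had been seen.

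The order of conditions separates the day 1 cultures from the earlier ones for Gimap1, Gimap3, Gimap6, Gimap8, Gimap9 and, near background, Gimap4. It separates iTreg culture from the rest for Gimap1, Gimap5, Gimap6 and, most widely, Gimap7 (7.51 against 8.65 with 3 hr of TGF). For Gimap8 the 3 hr Th0, 3 hr iTreg and day 0 means (11.85, 11.75 and 11.64) stood above all day 1 means, and neighbouring conditions among the day 1 cultures overlapped, from 9.94 in Th0 culture to 9.70 with 3 hr of TGF. For Gimap9 the day 1 means went from 9.89 in Th0 culture through 9.75 with 1 hr of TGF and 9.67 in Th1 culture to 9.52 with 3 hr of TGF and 9.45 in iTreg culture, and the neighbours 1 hr of TGF and Th1 culture overlapped, as did 3 hr of TGF and iTreg culture. For Gimap5 by its brighter probe, iTreg culture (7.62) stood clear of its neighbour, 3 hr of TGF (8.42).

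The chromosomal neighbours of the family were called in both directions. Of 9 neighbours listed, 4 had a retained probe (Atp6v0e2, Repin1, Tmem176b and Tmem176a). From 3 hr to day 1 in Th0 culture Repin1, a zinc finger gene upstream of Gimap8, rose (1.21, SE 0.104, adjusted p 8.26e-08) and Tmem176b, next to Gimap3, fell (−0.59, SE 0.0899, adjusted p 3.87e-05). That is 1 of 4 each way, close to the shares of all probes (26.4% higher and 27.4% lower). In iTreg against Th0 culture Repin1 was the one neighbour called (−0.56, adjusted p 0.00316), where 6.59% of all probes were called and 2.99% were lower.

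**Figure D3:**
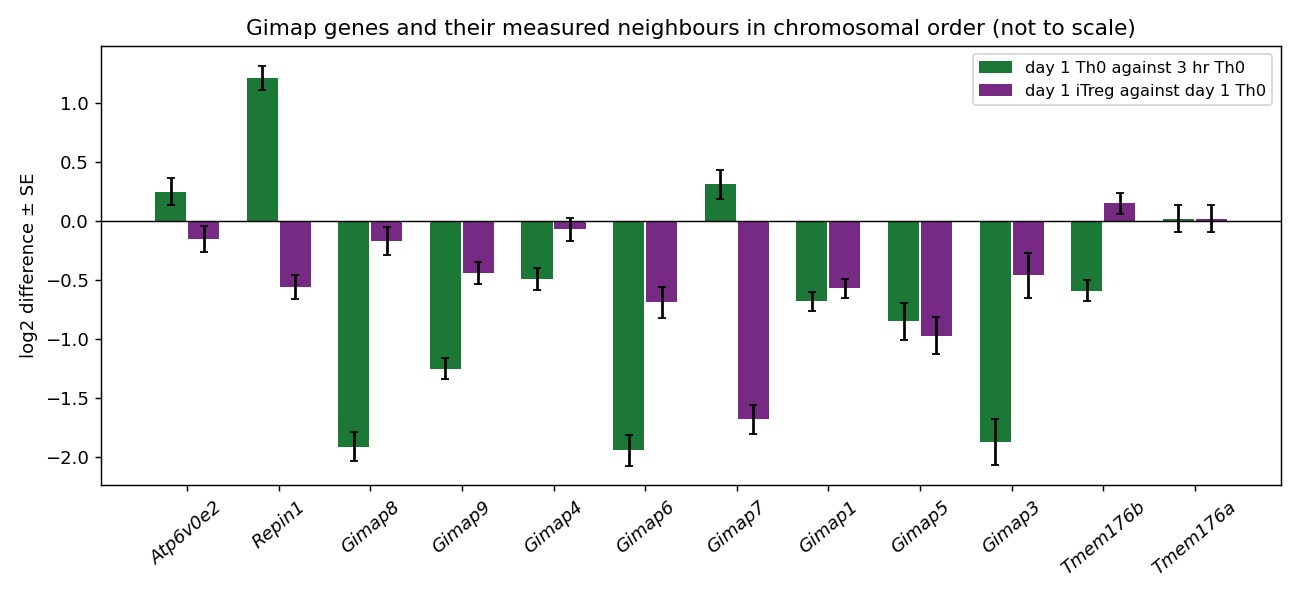
Log2 differences (vertical axis, bars of 1 SE) for the 8 Gimap genes and their 4 measured neighbours in chromosomal order (horizontal axis, not to scale), for day 1 against 3 hr Th0 culture and for day 1 iTreg against Th0 culture. Gimap8, Gimap6 and Gimap3 reach −1.91, −1.94 and −1.87 in the first comparison, and Gimap7 is at 0.31 in the first and −1.68 in the second.

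The Gimap7 level was higher in Erk2-deficient than in WT cells. Over all 8 pairs Gimap7 was the one family member called between genotypes, 1.29-fold higher in Erk2-deficient cells (0.37, SE 0.0613, adjusted p 0.0057), where 3.47% of all probes were called and 1.81% were higher. It was higher in 8 of 8 pairs by their labels, in 7 of 7 without the day 0 pair and in 7 of 8 with the day 0 labels exchanged. The differences were 0.03 at day 0, 0.38 in each 3 hr culture, 0.29 in day 1 Th0 culture, 0.65 in Th1 culture, 0.57 in iTreg culture, and 0.19 and 0.45 with 1 hr and 3 hr of TGF. The day 0 pair thus hardly differed, and the 1 hr TGF pair had the smallest difference of the rest. Without the day 0 pair the difference was 0.42 (adjusted p 0.000469), with the day 0 labels exchanged 0.36 (adjusted p 0.00371), and without the iTreg pair 0.34 (adjusted p 0.00758). On the second chip alone it was 0.47 (adjusted p 0.00903) and on the first 0.27 (adjusted p 0.336). In the fit of the first chip 0 of all probes were called.

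By stage, the 5 day 1 pairs also called Gimap7 and no other gene (0.43, SE 0.0741, adjusted p 0.00373, 5 of 5 pairs higher), where 3.98% of all probes were called and 2.30% were higher. Gimap3 (0.36, SE 0.102, adjusted p 0.0638) and Gimap8 (0.23, SE 0.0683, adjusted p 0.0688) were higher in 5 of 5 day 1 pairs but did not pass the limit. Without the day 0 pair, which gives its spread to this fit, both passed it (adjusted p 0.0452 and 0.0388), and without the iTreg pair Gimap3 was at 0.19 (adjusted p 0.125) and Gimap8 at 0.17 (adjusted p 0.231). Gimap7 at day 1 was at 0.43 without the day 0 pair (adjusted p 0.000853) and at 0.40 without the iTreg pair (adjusted p 0.00945). Before day 1, 0 genes were called in 3 pairs, as were 0 of all probes (0%), with 3 of 10 Gimap probes and 1639 of all probes at an unadjusted p under 0.05. Without the day 0 pair 503 probes were called before day 1, but still no Gimap gene, with Gimap7 at 0.38 (adjusted p 0.0635). Of the 3 Gimap probes, 1 was that of Gimap7 and the others were the Gimap5 probes, which were lower in Erk2-deficient cells in both 3 hr pairs (−0.57 and −0.25 for the brighter probe, −0.32 and −0.61 for the other, adjusted p 0.329 and 0.214 before day 1). The difference between the stages gave 0 called Gimap genes (0.103% of all probes, 15 in all), with 4 of 10 Gimap probes and 1312 of all probes at an unadjusted p under 0.05. A change of the genotype difference with time is thus not shown for any member.

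In iTreg culture the genotypes differed more than elsewhere at day 1 for 2 genes. The Gimap3 difference was 1.04 in the iTreg pair and 0.14 to 0.30 in the other day 1 pairs, and the test of the iTreg pair against these 4 pairs gave 0.86 (SE 0.133, adjusted p 0.00299). For Gimap6 the difference was 0.55 in the iTreg pair and −0.09 to 0.05 in the others, and the test gave 0.58 (SE 0.135, adjusted p 0.0346). In this comparison 2.25% of all probes were called and 1.52% were higher in the iTreg pair. The iTreg pair is 1 pair, assumed to vary like the others, and includes the array that stood apart. It was singled out for testing because earlier results of these data had shown that array apart, so the test is not separate evidence. With array weights neither gene was called (adjusted p 0.0749 and 0.365), at differences of 0.85 and 0.57. In that fit 26 of all probes were called, against 327 as designed. Both iTreg arrays got the same weight (0.512), so the weights cannot single out the array that stood apart. The Gimap6 call was lost in 7 of 18 alternatives, including without any 1 of the other day 1 pairs (adjusted p 0.0561 to 0.0765), and the Gimap3 call with array weights alone. Beside these values, the summed T cell markers were 17291 on the WT and 28890 on the Erk2-deficient iTreg array, and their part in the difference was not tested.

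At day 1 Thy1 was higher in Erk2-deficient cells (0.60, adjusted p 0.002) and Cd5 lower (−0.38, adjusted p 0.002), while the other 4 T cell markers were not called. Of the other markers, 1 of 5 myeloid genes and 1 of 4 CD8 and NK cell genes were higher. Of all probes 3.98% were called in this comparison and 2.30% were higher. The part of these markers in the Gimap7 difference was not tested.

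**Figure D4:**
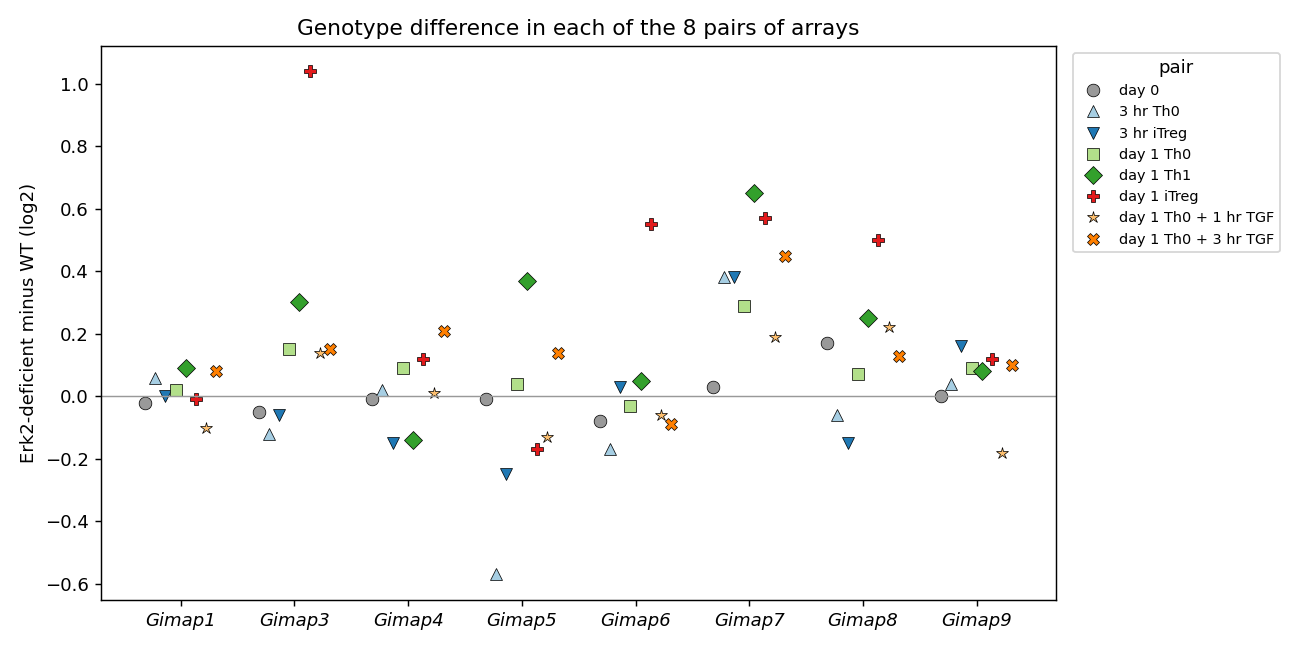
Erk2-deficient minus WT difference on the log2 scale (vertical axis) for each Gimap gene (horizontal axis) in each of the 8 pairs of arrays (symbols, 1 WT and 1 Erk2-deficient array each). The Gimap7 symbols lie between 0.03, for the day 0 pair whose labels are in doubt, and 0.65, and the iTreg pair stands alone at 1.04 for Gimap3 and 0.55 for Gimap6.

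The genes whose pattern was most like the family were sought by Pearson's r with the mean of the 8 genes, each centred on its own mean. Among the 10 day 1 arrays these were Satb1 (r = 0.98), a chromatin organiser of T cells, Fbxo4 (0.957), Phf11a (0.952), Evl (0.948) and Dpp4 (0.945), and 0.296% of other genes exceeded 0.9. Over all 16 arrays Satb1 (0.988), Cd53 (0.984), Fam107b (0.974), Armcx3 (0.971) and Isg15 (0.971) came first. There the arrays fall into separate clusters by time and 4.25% of genes exceeded 0.9, so that r mainly describes the step between 3 hr and day 1. The arrays share chips and normalization, and these values are descriptions. Satb1 was lower at day 1 than at 3 hr in Th0 culture (−1.34) and lower in iTreg than in Th0 culture (−0.86). As Satb1 was picked for its likeness to the family on these arrays, these values follow from the choice and test nothing. Within the family, r of Gimap7 with the mean of the other genes was 0.378 over 16 arrays and 0.947 over the day 1 arrays. Over the day 1 arrays r was lower for Gimap4 (0.495), Gimap8 (0.555) and Gimap3 (0.669), and 0.818 to 0.919 for the other members. The genes were not scaled to equal spread, so the family mean leans on those that vary most. At day 1 that was Gimap7, from 7.23 to 9.57.

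Other genes of resting T cells also fell with time, and in iTreg culture more of them were higher than lower. Of 12 retained genes of a list of naive T cell and Foxo1-Klf2 genes (16 listed), 9 fell and 1 rose from 3 hr to day 1 in Th0 culture, with a median of −1.07, where 27.4% of all probes fell and 26.4% rose. Among them were Il7r, the receptor of a survival cytokine (−2.84, adjusted p 6.07e-07), the glucocorticoid-induced gene Tsc22d3 (−2.68, adjusted p 3.46e-06) and Klf2, which encodes a quiescence factor (−2.1, adjusted p 2.85e-06). In iTreg against Th0 culture 3 of the 12 were higher, Igfbp4 (2.12), Klf2 (0.95) and the transcription factor Foxo1 (0.76), and 1 was lower, Satb1, where 3.60% of all probes were higher and 2.99% lower. The 2 iTreg arrays differed for this list. In the test of the iTreg pair against the other day 1 pairs 4 of the 12 were higher and 0 lower (median 0.50), beside 1.52% of all probes higher. Values without the Erk2-deficient iTreg array are not given for this list, and the part of that array was not tested. Most of this list had already fallen at 3 hr against day 0 (8 lower and 1 higher, median −0.81, beside 24.7% and 24.5% of all probes). At day 1, 4 of the 12 were higher in Erk2-deficient cells, Klf2 (0.96, adjusted p 0.00069), Tsc22d3 (0.92, adjusted p 0.00581), Igfbp4 (0.48, adjusted p 0.00486) and Lef1 (0.30, adjusted p 0.0462), beside 2.30% of all probes.

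Among 8 retained Bcl2 family genes, 3 rose and 3 fell from 3 hr to day 1 in Th0 culture, beside 26.4% and 27.4% of all probes. The survival gene Bcl2l1 rose (1.50, adjusted p 3.41e-07), and the death gene Bcl2l11 (−1.45, adjusted p 8.63e-07) and the survival gene Mcl1 (−1.21, adjusted p 1.01e-06) fell. In iTreg against Th0 culture 2 were lower, Bcl2l11 (−0.76, adjusted p 0.00672) and Bid (−0.58, adjusted p 0.00129), beside 2.99% of all probes. At day 1 Bcl2 itself (0.48, adjusted p 0.00159) and Bcl2l11 (0.36, adjusted p 0.0328) were higher in Erk2-deficient cells, as were 2.30% of all probes. Of 10 Gabarap and LC3 autophagy genes 7 fell and 0 rose from 3 hr to day 1 in Th0 culture, with a median of −0.73, beside 27.4% of all probes that fell. Among them were the autophagy receptor Sqstm1 (−1.94, adjusted p 1.12e-08), Map1lc3a (−1.64, adjusted p 2.1e-09) and Gabarap (−1.30, adjusted p 1.56e-07). None of the 10 was called in iTreg against Th0 culture, where 6.59% of all probes were called.

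Other GTPases of immunity moved mostly upward at 3 hr. Of 8 retained genes of the interferon-inducible GTPase families, 6 rose and 2 fell at 3 hr, with a median of 1.79, beside 24.5% and 24.7% of all probes. From 3 hr to day 1 in Th0 culture 4 fell and 1 rose (27.4% and 26.4% of all probes), and in iTreg against Th0 culture 3 were lower, Gbp2 (−1.66, adjusted p 2.37e-05), Gbp3 (−1.25, adjusted p 0.000404) and Irgm2 (−0.51, adjusted p 0.0342), beside 2.99% of all probes. None of the 8 was called between genotypes at day 1, where 3.98% of all probes were called, so few calls would be met among 8 genes in any case.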

How the data were processed

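Gene expression of mouse CD4 T cells was measured on 16 Illumina bead arrays. The deposited main table holds linear probe intensity that the authors had not normalized, without detection p-values or control probes. Their series matrix holds normalized linear intensity, and how it was normalized is not stated in the labels or files used. The series matrix served as an alternative. Of 25697 probes, 23978 had 1 symbol in the platform annotation, 1719 had none and 0 had several.

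Intensities were background-corrected by normexp (offset 50), quantile normalized and put on the log2 scale with limma 3.58.1 in R 4.3.3. A probe was above background on an array past the 99th percentile of a normal distribution around the mode of that array, and probes above it on at least 2 arrays were tested. Background that cannot be separated from dim signal compresses the fold changes of dim probes such as Gimap4. The number of arrays limits the precision.

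All 16 arrays entered each limma fit (lmFit, eBayes), with condition and genotype as additive terms, or with separate genotype terms by stage and for the iTreg pair, and Benjamini-Hochberg adjustment over all tested probes (limit 0.05). The condition term already pairs the arrays. The brightest retained probe stood for a gene. Every Gimap probe is named, with the 5 genes most like the family and up to 4 members of each list. Members, lists and rules were chosen with earlier results of these data known. Of the lists, 13 of 16 naive T cell, 8 of 10 Bcl2, 10 of 10 Gabarap and LC3, 7 of 9 neighbour and 9 of 10 other GTPase genes had a probe. Procedures were tested on simulated data. Alternatives were other background corrections, normalizations, filters and priors, array weights, other blocks, single chips, exchanged day 0 labels, the mean of a gene's probes, and leaving out each array or pair. Promoter windows are RefSeq's for GRCm38.p6, and no build is named for the arrays. The level of the targeted gene is not reported here.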

Additional observations from a re-analysis of the deposited data

Results flagged for a closer look

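The Erk2-deficient minus WT difference of Gimap3 in the day 1 iTreg pair, 1.04, lay far from the other pairs, the nearest at 0.30, both among the 5 day 1 pairs and among all 8. The test of this pair against the other day 1 pairs gave 0.86 (limma, adjusted p 0.00299). For Gimap6 the difference in the same pair, 0.55, lay far from the nearest other pair at 0.05, again among 5 and among 8 pairs, and the test of the difference gave 0.58 (adjusted p 0.0346), a call lost in 7 of 18 alternatives. For Gimap9 the pair with 1 hr of TGF, at −0.18, was the one of the 5 day 1 pairs below 0, the nearest other pair being at 0.08. Of 16 sets of pairs examined, 5 held such a distant pair, where chance gives about 1 in 20, and the sets of 5 pairs lie within those of 8. The tests of the iTreg pair use the same values as these distances and a pair chosen from these data. They are not separate evidence.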

How the results depend on the processing

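Counts here are Gimap genes called of 8. For 3 hr of TGF against Th0 culture the count of 1 became 2 with no background correction or with array weights, and 0 with a normexp offset of 16, median scaling, cyclic loess, the series matrix values, no genotype term, or 1 hr of TGF on the same chip as the control. These fits called 27 to 430 of all probes, against 169 as designed. For the genotype difference at day 1 the count of 1 became 2 with median scaling (Gimap3 added) and 3 with array weights or exchanged day 0 labels (Gimap3 and Gimap8 added). For the iTreg pair against the other day 1 pairs the count of 2 became 1 with a normexp offset of 16 or median scaling (Gimap6 lost) and 0 with array weights. Of all probes 120, 293 and 26 were called in these 3 fits, against 327 as designed. The genotype count over all conditions, 1, became 0 with chip as the only block and on chip 1 alone, with 4 pairs. In both of these fits 0 of all probes were called. The mean of both Gimap5 probes reversed its difference between day 1 Th0 culture and day 0, from 0.05 to −0.62 (limma, adjusted p 0.000481). Leaving out 1 array at a time gave 2 to 4 genes for 3 hr against day 0, 5 to 6 for day 1 Th0 against day 0, 7 to 8 for day 1 against 3 hr Th0, 8 to 8 for iTreg at day 1 against 3 hr, 3 to 6 for iTreg against Th0, 3 to 5 against Th1, 2 to 4 against 1 hr of TGF, 0 to 0 for Th1 and for 1 hr of TGF against Th0, 0 to 3 for 3 hr of TGF against Th0 and 0 to 1 against 1 hr of TGF. Leaving out 1 pair at a time gave 1 to 1 for genotype over all conditions, 1 to 3 at day 1, 0 to 0 before day 1 and for the difference between stages, and 1 to 2 for the iTreg pair. The same refits called, of all 14509 probes, 383 to 1715 for iTreg against Th0, 502 to 2294 against Th1, 215 to 1195 against 1 hr of TGF, 50 to 282 for 3 hr of TGF against Th0, 149 to 967 for genotype over all conditions, 232 to 921 at day 1 and 179 to 722 for the iTreg pair. Of the differences of single Gimap genes under the alternatives, 3135 kept their side of the limit without reversing a call, 66 lost a call, 22 gained one and 1 reversed. The Gimap7 differences for iTreg culture against Th0 (−1.90 to −1.49) and Th1 culture (−1.95 to −1.53) and between genotypes at day 1 (0.38 to 0.49) kept their calls in 29, 28 and 19 alternatives. No paired analysis was possible because the labels give no replicate numbers, beyond the pairing of genotypes by condition that the fits already hold. The causes of these changes were not tested. Signal near background limits Gimap4.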
